A study of Mus musculus with 59 samples.

Results

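The genes described here are 37 interferon-stimulated genes of the mouse, out of 45706 genes in the count tables. They were chosen by name, and a listed gene was kept if its mean was at least 1 CPM (the counts-per-million measure of reads) in any of the 15 groups. All 37 listed genes passed. Interferons are secreted proteins that cells release on sensing foreign nucleic acid. Type I interferons bind the Ifnar1 and Ifnar2 receptor, whose kinases Jak1 and Tyk2 activate transducers such as Stat2, which joins Irf9 to bind the interferon-stimulated response element (ISRE) in the promoters of target genes. Many of the targets make antiviral proteins, and some are themselves sensors and transducers of the pathway. Stem and progenitor cells of several tissues are known to hold some of these genes at a steady level without infection.

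Both kinds of cell that were sequenced, a cell line and primary progenitors, lack Tcf7, the gene of the T cell transcription factor TCF-1, and were given back TCF-1 or altered forms of it by retrovirus. The line was scid.adh, a mouse lymphoma line close to early T cells in type, with Tcf7 knocked out. Every line title carries a single line name, and whether it is 1 clone is not stated. Cells were transduced with EV (a vector with no insert), with WT (intact TCF-1), or with the forms DL1, DL2, DL6, DL7 and DHMG, and live transduced cells were sorted 72 h later. The primary cells were bone marrow progenitors of the strain Tcf7eGFP fl/fl Cre+, whose Cre driver the labels do not give, grown for 7 days on OP9-DLL1, a stromal line that presents a Notch ligand. They were transduced with EV, L1d, L7d, HMGd or P45, which in the titles of the line also names wild-type TCF-1, and the labels do not spell out what each altered form lacks. After the culture they were sorted as DN1 (c-Kit high, CD44 high, CD25 low), the earliest stage, or as DN2 (c-Kit low, CD44 low, CD25 high), per the labels' protocols. The titles give progenitors as LSK and the source names give both stages as CD44 positive. For DN2, the EV and HMGd constructs were not analysed here. Each of the 7 line groups, 5 DN1 groups and 3 DN2 groups had 2 replicates, which no label says came from separate cultures or animals, so a p-value here reflects the spread among these samples alone, which may be technical.

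The 14 cell line libraries held 3.82 to 9.482 M (mega) reads in genes, and the 16 primary replicates, each the sum of its libraries, 9.059 to 34.39 M reads. Levels are CPM of these reads. Tcf7 itself was at 3.32 and 4.26 CPM in DN1 EV and at 625 to 1110 CPM in the other primary replicates. In the line it was at 564 and 550 CPM with EV and at 1720 to 3760 CPM with the constructs, so Tcf7 transcript was still read in the knockout line without TCF-1. By construct it was at 1810 and 1720 CPM with WT, 1910 and 1930 with DL7, and 1980 and 2060 CPM with DL2. With DL6 it was at 2580 and 2520 CPM, with DL1 at 2420 and 2660, and with DHMG at 3760 and 3730 CPM. The cell line carried T lineage transcripts (a summed level of 5020 to 5800 CPM over 12 marker genes) and lacked reads for 8 of 14 granulocyte genes. In DN1 the same T lineage sum was 91.5 to 121 CPM, beside 16400 to 38200 CPM for the 14 granulocyte genes and 2730 to 4310 CPM for 9 monocyte and macrophage genes. In DN2 these sums were 520 to 1660, 1200 to 4890 and 429 to 1010 CPM. Il2ra, which encodes CD25, had group means of 0.503 to 2.81 CPM in DN1 and 410 to 1230 CPM in DN2, while Kit transcripts were lower in DN1 (97.5 to 112 CPM) than in DN2 (272 to 295 CPM), the reverse of the sorted protein levels. In bulk RNA, a lower number of cells of a type and less RNA per cell cannot be told apart.

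Promoter sequences from RefSeq (GRCm38.p6, the build of the files) were matched for 28 of the 37 genes, with 35 start sites and 250 bases before and 50 after each. A core of the ISRE, here GAAA, any 2 letters and GAAA again, stood on either strand in promoters of 16 of these 28 genes, against 3.99% of the 27025 genes in the table. Stretches of 80 bases upstream of the start are shown for genes described in the results below, written 5′ to 3′ on the gene's strand, with the ISRE core in capitals (for Irf1, the site described next).
Isg15, chr4:156200849-156200928, minus strand: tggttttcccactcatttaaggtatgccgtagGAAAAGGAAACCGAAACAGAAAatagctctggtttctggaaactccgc
Ifit1, chr19:34640764-34640843, plus strand: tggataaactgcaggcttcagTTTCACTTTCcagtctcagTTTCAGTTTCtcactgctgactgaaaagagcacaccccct
Ifit3, chr19:34583354-34583433, plus strand: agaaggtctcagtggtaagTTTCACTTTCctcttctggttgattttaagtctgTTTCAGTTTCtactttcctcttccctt
Ifit3b, chr19:34607750-34607829, plus strand: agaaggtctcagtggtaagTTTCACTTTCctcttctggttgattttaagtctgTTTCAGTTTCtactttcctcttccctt
Rsad2, chr12:26456523-26456602, minus strand: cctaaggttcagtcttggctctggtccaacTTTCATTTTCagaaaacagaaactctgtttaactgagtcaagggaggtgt
Stat2, chr10:128270248-128270327, plus strand: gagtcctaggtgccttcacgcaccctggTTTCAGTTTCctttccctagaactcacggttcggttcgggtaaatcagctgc
Bst2, chr8:71537553-71537632, minus strand: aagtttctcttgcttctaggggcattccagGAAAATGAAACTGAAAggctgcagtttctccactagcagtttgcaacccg
Oas3, chr5:120777690-120777769, minus strand: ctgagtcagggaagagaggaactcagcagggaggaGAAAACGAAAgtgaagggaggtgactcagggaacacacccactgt
Irf1, chr11:53769894-53769973, plus strand: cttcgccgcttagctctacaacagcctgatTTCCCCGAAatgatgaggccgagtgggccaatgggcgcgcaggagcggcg

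The Isg15 stretch held 3 overlapping ISRE cores in one run, the Ifit1 stretch held 2, and all 80 bases shown were identical between Ifit3 and Ifit3b. Reads that map to several places were not counted, so levels of Ifit3 and Ifit3b, and of near-identical Oas and Gbp genes, are uncertain. The letters TTCNNNGAA of the gamma-activated site, named for interferon gamma, stood in promoters of 8 of the 28 genes, among them Irf1, against 9.55% of all genes. In Bst2 this match overlaps an ISRE core. The letters CTTTGAT, a form of the site bound by TCF-1 and its relatives, stood in 0 of the 28, against 4.29% of all genes, and no match says only that these letters are not in these windows. Dhx58, Ifi27l2a, Mx1, Mx2, Oas2, Parp14, Rtp4, Usp18 and Zbp1 had no entry in the promoter table.

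All 37 genes were read in every primary group, while 16 of them reached 1 CPM in no group of the cell line. Every primary group mean of every one of the 37 was above 10 CPM, from 15.48 CPM (Mx2 in DN2 P45) to 509.4 CPM (Irf7 in DN1 EV). Irf7 encodes the factor that amplifies type I interferon production. Per kilobase of exon the most abundant in DN1 EV was Ifi27l2a (263 CPM per kb), followed by Isg15 (168 CPM per kb), the ubiquitin-like modifier. By role, the highest levels per kilobase in DN1 EV after these were those of Irf7 among the transcription factors (135 CPM per kb), Ifit1 among the IFIT genes (98.5), Bst2 and Trim30a among the other effectors (90.2 and 87.8), Oasl2 and Oas3 among the OAS genes (60.3 and 58.5), Zbp1 among the nucleic acid sensors (57.4), and Gbp7 among the guanylate-binding proteins (29.2 CPM per kb). The Mx genes were at 13.2 (Mx1) and 6.09 CPM per kb (Mx2), and the lowest among the other effectors was Xaf1 (10.1 CPM per kb). The 37 genes summed to 5043 to 6003 CPM in the DN1 replicates and to 3946 to 4723 CPM in the DN2 replicates.

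In the cell line the sum was 272.1 to 339.5 CPM. Of the 37 genes, 3 had no read in any of the 14 libraries (Ifit3b, Oas1a and Cmpk2), which over 86.24 M reads allows a level of up to 0.03479 CPM, counting error only. A further 7 had between 1 and 10 reads in all, among them Rsad2, Ifi44, Oasl1 and Oasl2 with 1 read each. The 9 genes at 10 CPM or more in every line group were Mx1, Mx2, Ifit2, Herc6, Stat2, Irf1, Eif2ak2, Bst2 and Parp14. Line and primary libraries were scaled separately, so these levels stand side by side with no test.

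**Figure D1:**
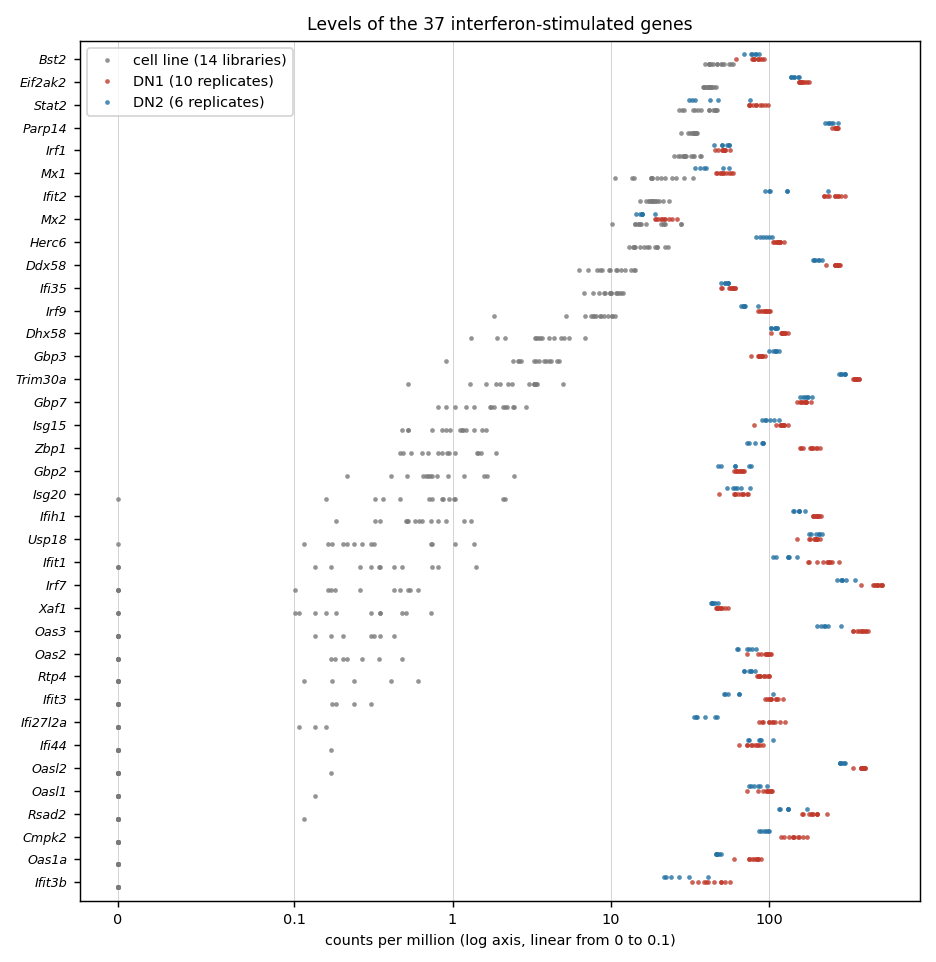
Each point is the level of one gene in one replicate in CPM, on a log axis that is linear from 0 to 0.1, for the cell line (grey, 14 libraries), DN1 (red, 10 replicates) and DN2 (blue, 6 replicates). The DN1 and DN2 points of all 37 genes lie above 10 CPM, while the cell line points run from 0 to 58.9 CPM.

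In the cell line, the Mx genes were lower with intact TCF-1 (WT) than with EV. These encode dynamin-like GTPases that block virus replication, and both lie on chromosome 16 (GRCm38), Mx1 at chr16:97447035-97462907 and Mx2 at chr16:97535308-97560900. Mx1 was at 32.9 and 29.1 CPM with EV and at 10.6 and 14 CPM with WT. Mx2 was at 27.7 and 27.9 CPM with EV and at 10.2 and 14.8 CPM with WT. Neither gene's groups overlapped. By edgeR's quasi-likelihood test, adjusted over all genes (Benjamini-Hochberg), Mx1 fell by 1.36 on the log2 scale (SE 0.16, adjusted p = 6.86e-09) and Mx2 fell by 1.18 (SE 0.165, adjusted p = 3.5e-07).

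Only 17 of the 37 genes had enough reads for the test in the line, where 10939 genes were tested. With WT against EV 4 of the 17 were called at an adjusted p under 0.05, 3 lower and 1 higher, against 24.9% of all genes called (12.6% lower, 12.3% higher), a share close to the background. Stat2, the transducer of type I signals, was at 45.6 and 46.5 CPM with EV and at 28.2 and 34 CPM with WT, and fell by 0.58 (adjusted p = 0.000402). That call was lost without WT replicate 1. Bst2, which encodes tetherin, a membrane protein that holds budding virus at the cell, moved the other way, from 42.6 and 39.2 CPM to 58.9 and 57.5 CPM (log2 change 0.51, SE 0.0984, adjusted p = 0.000105). The median log2 change was 0.02 over the 17 genes and 0.01 over all genes.

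Sums of marker genes of other lineages moved with the same line groups, but few genes of each list had enough reads for the test. With WT against EV, 1 of 7 mast cell and basophil genes was tested, and it was called lower. Of 7 natural killer genes 2 were tested and 1 was lower. Of 14 granulocyte genes 1 was tested, and it was lower. Over all genes 12.6% were called lower. The sum of 7 mast cell and basophil genes, of which Fcer1a, Gata2, Mcpt8 and Prss34 had no read, was 40.8 and 39.9 CPM with EV, 5.12 and 4.4 CPM with WT, and 10.1 to 24.3 CPM with the altered forms. The sum of 7 natural killer genes, with Klrk1 and Ncr1 at 0, was 275 and 267 CPM with EV, 145 and 146 CPM with WT, and 158 to 263 CPM with the altered forms. The granulocyte sum was 17.6 and 19.4 CPM with EV, 5.24 and 2.77 CPM with WT, and 6.52 to 12.4 CPM with the altered forms. Their part in the Mx levels was not tested.

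The altered forms fell into an order for Mx1. The part in it of the unequal Tcf7 levels given above was not tested. Mx1 group means were 31 CPM with EV, 23.2 with DL7, 23 with DL6, 18.9 with DHMG, 17.9 with DL1, 15.9 with DL2 and 12.3 with WT. Replicates overlapped between DL7 and DL6, and DL2 overlapped DL1, with single libraries at 18.1 and 13.6 CPM against 17.8 and 17.9 CPM, and also WT. Mx2 was at 15.4 and 15.3 CPM with DL1, 14.1 and 14.1 with DL2, 15.1 and 21.6 with DHMG, 16.7 and 20.7 with DL6, and 21.8 and 21.2 CPM with DL7, all below both EV libraries. Against EV, Mx1 and Mx2 were lower with DL1 (Mx1 by 0.80 and Mx2 by 0.86 in log2, adjusted p = 0.000192 and 0.000176), with DL2 (by 0.94 and 0.98, adjusted p = 8.13e-05 and 0.000117) and with DHMG (by 0.72 and 0.61, adjusted p = 0.00201 and 0.0117). The DHMG call of Mx2 was lost without DHMG replicate 1 or without either EV replicate. Stat2 was also lower with DL1 (29 and 35.5 CPM, fell by 0.54, lost without DL1 replicate 1) and with DHMG (37.3 and 26.8 CPM, fell by 0.51, lost without DHMG replicate 2), and Bst2 was higher with DL2 (49.5 and 55.6 CPM, 0.35, adjusted p = 0.04, lost without any 1 of the 4 libraries). The counts of the 17 called were 3 with DL1 (11% of all genes), 3 with DL2 (5.06%) and 4 with DHMG (17.1%).

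With DL6 and DL7 0 of the 17 genes were called against EV by edgeR, where 1.5% and 2.78% of all genes were. At an unadjusted p under 0.05 the counts were 4 and 3 (11.2% and 14.1% of all genes), and DESeq2 called 0 in both. The nearest were Mx2 with DL6 (log2 change -0.57, adjusted p = 0.0588) and Mx1 with DL7 (-0.45, adjusted p = 0.0865). The comparisons with EV share the EV libraries, and those with WT below share the WT libraries.

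Against WT, Mx1 was higher with DL6 (by 0.93, SE 0.171, adjusted p = 6.62e-05) and with DL7 (by 0.92, SE 0.165, adjusted p = 2.66e-05). It was also called higher with DL1 (0.56, adjusted p = 0.0245) and DHMG (0.65, adjusted p = 0.0171), where the calls were lost without WT replicate 1. Leaving out DL1 replicate 1 ended the first as well, and either DHMG replicate the second. Mx2 was higher with DL6, DL7 and DHMG (0.61, 0.81 and 0.57) and Stat2 with DL6 and DL7 (0.54 and 0.51), and these calls too were lost without WT replicate 1. Those of Mx2 were also lost without DL6 replicate 2 or DHMG replicate 2. With DL7, Irf1 was called higher (0.32) and Ifit2 lower (fell by 0.40), and neither call held without WT replicate 1 or DL7 replicate 1. Bst2 was lower with DL7 (41.4 and 41.6 CPM, fell by 0.49 against WT, adjusted p = 0.000103), which is the level seen with EV, and with DHMG (fell by 0.45, adjusted p = 0.00311, lost without DHMG replicate 1). Counts of the 17 called against WT were 1 with DL1 (10.8% of all genes), 0 with DL2 (11.4%; 4 at an unadjusted p under 0.05, and 0 by DESeq2), 3 with DL6 (21.5%), 6 with DL7 (30.5%) and 4 with DHMG (14.8%). Without WT replicate 1 the counts were 0 with DL1, 1 with DL6, 2 with DL7 and 1 with DHMG, and the DHMG count was 2 and 1 without DHMG replicate 1 and 2.

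**Figure D2:**
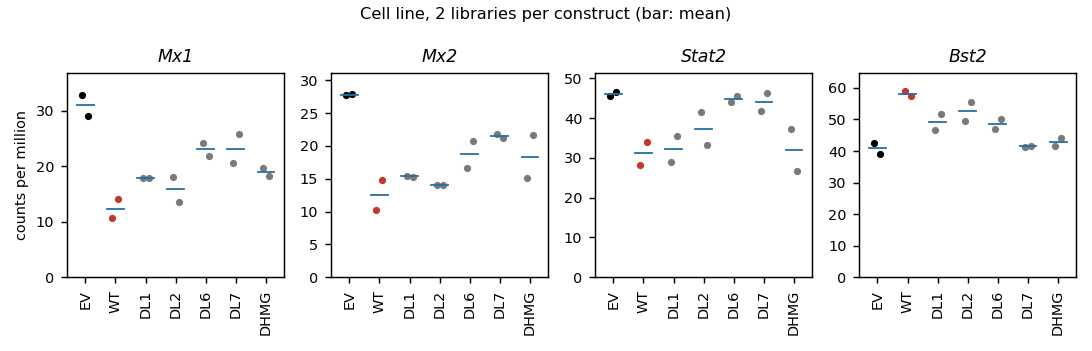
Points are single cell line libraries in CPM on axes from 0, with 2 per construct, and blue bars are their means. Mx1 and Mx2 are highest with EV (means of 31 and 27.8 CPM) and lowest with WT, while Bst2 is highest with WT (58.2 CPM).

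The DHMG libraries also held little Irf9, which encodes the DNA-binding partner of Stat2. Irf9 was at 5.22 and 1.82 CPM with DHMG, at 8.65 and 7.66 CPM with EV and at 10.6 and 7.49 CPM with WT. The change was -1.17 against EV (SE 0.335, adjusted p = 0.0105) and -1.34 against WT (SE 0.325, adjusted p = 0.00267), and without DHMG replicate 2 neither was called. Leaving out EV replicate 1 ended the first call and WT replicate 1 the second. Irf9 shares 123 bases with Rnf31 on its strand. The names of the DHMG files lack a run number that the other line files carry. Both DHMG libraries also had more forward-strand reads (8.56 and 8.49%) than the other line libraries (5.44 to 5.83%). Ribosomal RNA made up 29.7% of the gene reads in each, against 15.8 to 25.1% in the others. For every DHMG comparison, a separate run, library quality and the construct cannot be told apart. Across the 7 line groups the test for any difference called 7 of the 17 genes (Mx1, Mx2, Stat2, Irf1, Irf9, Dhx58 and Bst2), against 41.5% of all genes.

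In DN1, a small number of the 37 genes were lower with wild-type TCF-1 (P45) than with EV. Ifit1, which encodes a protein that binds viral RNA lacking the host's cap mark, was at 276 and 247 CPM with EV and at 177 and 176 CPM with P45. Cmpk2, a nucleotide kinase gene next to Rsad2, was at 172 and 162 CPM with EV and at 119 and 123 CPM with P45. Groups did not overlap for either gene. Ifit1 fell by 0.57 (SE 0.0871, adjusted p = 0.000616) and Cmpk2 fell by 0.47 (SE 0.0754, adjusted p = 0.001), and both calls held without any 1 replicate.

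In all, 6 of the 37 genes were called with P45 against EV, all 6 lower, where 5.72% of the 15010 genes tested were called lower and 1.75% higher (7.46% in all). The other 4 were Ifit3b (49.4 and 52.4 CPM to 35.6 and 32.5 CPM, adjusted p = 0.0245), Rsad2 (230 and 201 CPM to 161 and 164 CPM, adjusted p = 0.0174), Zbp1 (208 and 197 CPM to 159 and 162 CPM, adjusted p = 0.0261) and Ifi27l2a (117 and 126 CPM to 86.5 and 90.8 CPM, adjusted p = 0.0213). Rsad2 encodes viperin, which makes a chain-terminating nucleotide, and Zbp1 a sensor of left-handed nucleic acid. Calls of Ifit3b, Zbp1 and Ifi27l2a were lost without any 1 of the 4 replicates, and that of Rsad2 without EV replicate 1 or either P45 replicate. The count was 3 without EV replicate 2 and 2 without each of the others, while with these groups alone in the fit it was 11. The median log2 change of the 37 was -0.06, and -0.01 over all genes. The OAS family, the nucleic acid sensors other than Zbp1 and the Mx genes had no call, and Mx1 had the highest change of the 37 (0.18).

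Granulocyte transcripts were also lower with P45 than with EV. Their summed level was 38200 and 37300 CPM with EV, 32200 and 31000 with HMGd, 27900 and 28400 with L1d, 23800 and 21900 with L7d, and 16400 and 18600 CPM with P45, with all 14 genes detected. The monocyte and macrophage sum was 4310 and 4020 CPM with EV and 2730 and 2870 CPM with P45. Among the altered forms the 6 genes did not share 1 order. Means with HMGd, L1d and L7d were 218, 230 and 233 CPM for Ifit1 and 181, 194 and 194 CPM for Rsad2. Zbp1 was at 177, 183 and 186 CPM and Ifi27l2a at 97.8, 102 and 104 CPM. Cmpk2 (148, 147 and 138 CPM) and Ifit3b (48.1, 45.5 and 41.9 CPM) fell in the order of the granulocyte sum. The part of these cells in the change of the 6 genes was not tested.

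The altered forms gave intermediate levels for several of these genes. Ifit1 means in DN1 were 261 CPM with EV, 233 with L7d, 230 with L1d, 218 with HMGd and 176 with P45. Replicates of the EV, L7d, L1d and HMGd groups lay between 199 and 276 CPM. Against EV edgeR called 0 of the 37 genes with L1d (0.473% of all genes), L7d (5%) and HMGd (0.00666%). At an unadjusted p under 0.05 the counts were 2, 2 and 15 (8.47%, 15.7% and 7.61% of all genes), and DESeq2 called 0, 1 and 0. With HMGd 33 of the 37 log2 changes were below 0 (median -0.15, and -0.01 over all genes), with Isg15 lowest at -0.34. HMGd replicate 2 was the lower one for Isg15, at 80.6 CPM against 119 CPM in replicate 1 and 131 and 123 CPM with EV. Without HMGd replicate 1 the count with HMGd was 3.

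Against P45, Ifit1 was higher with L1d (218 and 242 CPM, log2 change 0.39, adjusted p = 0.0424), 1 call of 37 where 1.33% of all genes were called. That call was lost without any 1 of the 4 replicates. With HMGd Cmpk2 was higher (153 and 142 CPM, 0.29, adjusted p = 0.04) and Ifi35 lower (50 and 49.3 CPM against 59.1 and 59.4 CPM, adjusted p = 0.0259), 2 calls where 4.88% of all genes were called. Without either P45 replicate that count was 0, and without HMGd replicate 1 it was 8. With L7d edgeR called 0 of the 37 (0.00666% of all genes) and DESeq2 called 1. At an unadjusted p under 0.05 there were 5 (5.64% of all genes). The L7d changes against P45 ran from -0.10 (Mx1) to 0.40 (Ifit1), with a median SE of 0.0866. The test for any difference among the 5 DN1 groups called Ifit1, Cmpk2 and Ifi35, 3 of 37 against 5.78% of all genes, with counts of 0 to 8 when replicates were left out.

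**Figure D3:**
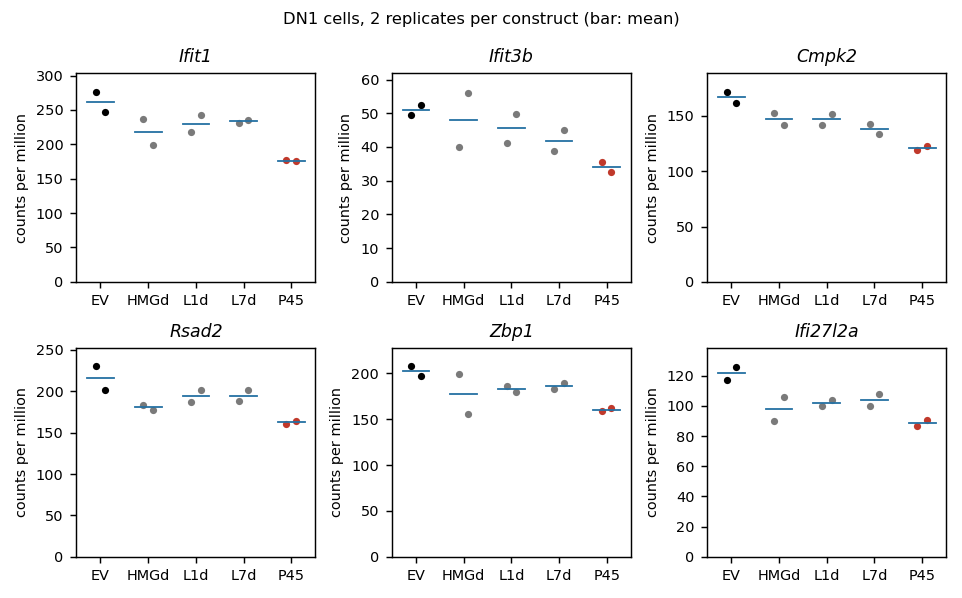
Points are DN1 replicates in CPM on axes from 0, with 2 per construct, and blue bars are means, for the 6 genes called with P45 against EV. The P45 points (red) lie below both EV points (black) for all 6 genes, for Ifit1 at 177 and 176 CPM against 276 and 247 CPM.

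From DN1 to DN2 many of the 37 genes were called lower with each of the 3 constructs, and few were called higher. With P45 27 were called, 26 lower and 1 higher, where 22.6% of all genes were called lower and 20.6% higher (43.3% in all). With L1d 19 were called, 16 lower and 3 higher (19.7% and 20.1% of all genes, 39.8% in all). With L7d 24 were called, 23 lower and 1 higher (21.8% and 19.5%, 41.3% in all). The median log2 change of the 37 genes was -0.40 with P45, -0.31 with L1d and -0.29 with L7d, against -0.02, 0.02 and 0.00342 over all genes. These 3 comparisons share no samples. Leaving out single replicates gave 21 to 23, 15 to 22 and 20 to 21 calls.

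Called lower in all 3 were 14 of the 37 genes (37.84%), against 14.55% of all genes. These were Cmpk2, Ddx58, Herc6, Ifi27l2a, Ifih1, Ifit1, Irf7, Irf9, Oas1a, Oas3, Oasl2, Rsad2, Trim30a and Zbp1. With L1d the calls of Herc6, Irf9 and Rsad2 were lost when single replicates were left out, among them DN1 replicate 2 and DN2 replicate 1 for each. A log2 change below 0 in all 3 was found for 31 of the 37 genes, and for 36.52% of all genes. Bst2, Gbp7, Irf1, Isg15, Isg20, Usp18 and Xaf1 were called in none, so the ISG15 modifier and Usp18, the protease that removes it, were not among the called genes, and of the ISG15 system only the ligase gene Herc6 was.

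The largest change was that of Ifi27l2a. It was at 86.5 and 90.8 CPM in DN1 P45 and at 34.6 and 35.1 CPM in DN2 P45, and L1d and L7d gave 99.9 to 108 CPM in DN1 and 33.6 to 46.7 CPM in DN2. The log2 change was -1.35, -1.26 and -1.39 with P45, L1d and L7d (SE 0.118, 0.122 and 0.118, adjusted p at most 1.01e-06). Zbp1 was at 159 to 190 CPM in DN1 with these 3 constructs and at 72.8 to 91.6 CPM in DN2, with changes of -1.12, -1.09 and -1.03 (adjusted p at most 2.07e-07). Neither gene's DN1 and DN2 replicates overlapped.

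Among the transcription factors, Irf7 was at 454 to 516 CPM in DN1 and at 269 to 350 CPM in DN2 with these 3 constructs, and its log2 change was -0.77, -0.62 and -0.71 with P45, L1d and L7d. Irf9 fell by 0.41, 0.34 and 0.41. Stat2 was at 78.6 and 82.5 CPM in DN1 P45 and at 30.9 and 34.1 CPM in DN2 P45 (-1.31, SE 0.184, adjusted p = 3.36e-05), and it fell by 1.14 with L7d, but with L1d it was not called, at 74.1 and 94.5 CPM against 47.2 and 75.4 CPM. Irf1, a target of interferon gamma as well, was at 50.6 to 52.3 CPM in DN1 and 45 to 55.7 CPM in DN2 and had no call.

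The OAS genes make or resemble the enzymes that activate RNase L on sensing double-stranded RNA, and all 5 were called lower with P45, 4 with L1d and 3 with L7d. Those of Oas1a, Oas3 and Oasl2 held whichever replicate was left out. With P45 the Oasl1 call was lost without any 1 of the 4 replicates and that of Oas2 without DN1 replicate 2 or DN2 replicate 1, and with L1d the Oas2 call was lost without DN2 replicate 1. Oas1a was at 74.1 to 88 CPM in DN1 with these 3 constructs and at 45.9 to 49.5 CPM in DN2 (log2 change -0.79, -0.82 and -0.74). Oas3 was at 336 to 403 CPM in DN1 and 201 to 282 CPM in DN2 (log2 change -0.75, -0.62 and -0.75). All 4 IFIT genes were lower with P45 and with L7d and 1 of them (Ifit1) with L1d. Ifit2 was at 223 and 232 CPM in DN1 P45 and at 101 and 94.5 CPM in DN2 P45 (-1.22, SE 0.194, adjusted p = 0.000108). The RNA sensors Ifih1 (MDA5) and Ddx58 (RIG-I) were lower with all 3 constructs, by 0.32 to 0.51 and by 0.39 to 0.49.

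Guanylate-binding proteins are GTPases that attack the vacuoles of intracellular microbes, and their calls differed in direction. Gbp2 fell by 0.43 with P45 and by 0.19 with L7d and rose by 0.25 with L1d, where Ifi44 was higher too (0.39). Of these the Gbp2 call with P45 held whichever replicate was left out. The Gbp2 call with L7d was lost without any 1 of the 4 replicates, that with L1d without DN1 replicate 1, and the Ifi44 call without DN2 replicate 2. Gbp3 was higher in DN2 with all 3 constructs, at 76.8 to 94.4 CPM in DN1 and 99.7 to 115 CPM in DN2 (0.20, 0.44 and 0.28, adjusted p = 0.028, 0.000144 and 0.00309), although with P45 the call was lost without DN1 replicate 1 or 2 or DN2 replicate 1. Gbp7 was called with none. The granulocyte sum was 16400 to 28400 CPM in these DN1 groups and 1200 to 4890 CPM in DN2, and the monocyte and macrophage sum 2730 to 3680 and 429 to 1010 CPM. The sum of 8 OP9 stroma genes was 111 and 148 CPM in DN1 P45 and 38.4 and 101 CPM in DN2 P45. With L7d this sum was 175 and 129 CPM in DN1 and 20 and 45.6 CPM in DN2. With L1d it was 167 and 321 CPM in DN1 and 27 and 213 CPM in DN2. The part of these cells in the lower levels was not tested.

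**Figure D4:**
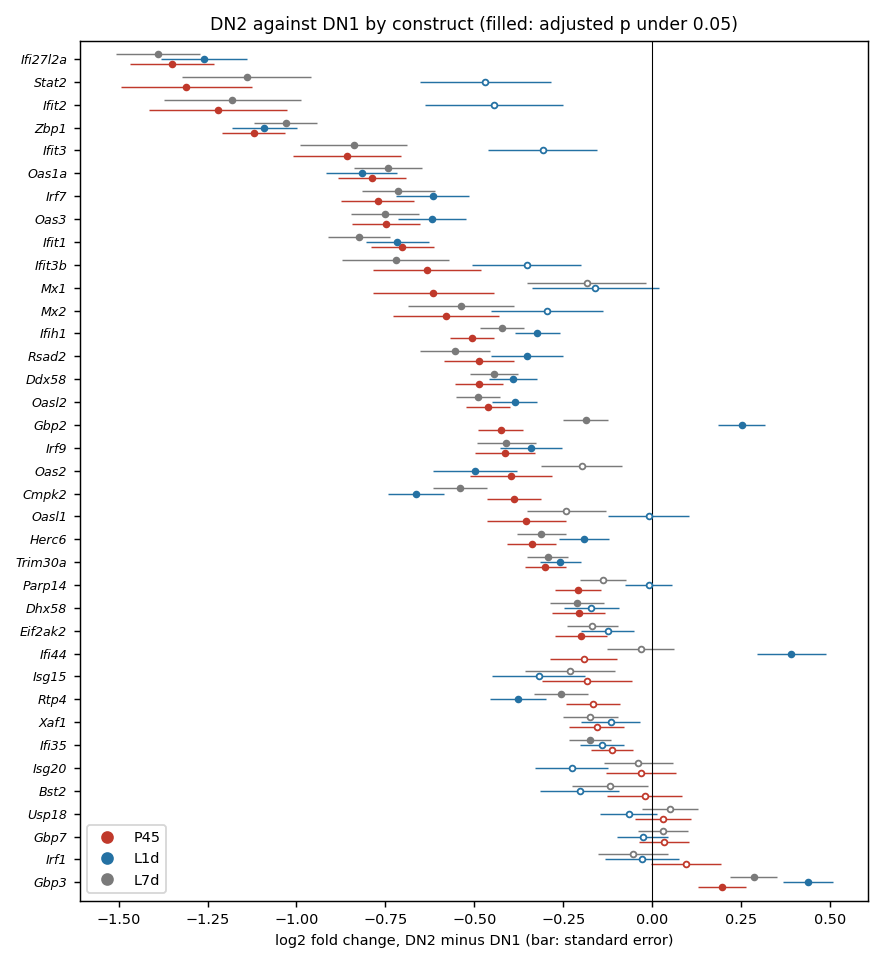
Points are log2 fold changes of DN2 minus DN1 with P45 (red), L1d (blue) and L7d (grey), bars are standard errors, and filled points passed an adjusted p of 0.05. Most points lie left of 0, Ifi27l2a farthest at -1.39 to -1.26, and Gbp3 lies right of 0 with all 3 constructs.

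Within DN2 Gbp2 was higher with the L1d form than with P45, while the calls of other genes depended on single replicates. Gbp2 was at 49.3 and 47.1 CPM with P45, at 60.4 and 60.3 CPM with L7d and at 76.3 and 74.9 CPM with L1d, with no overlap between the groups. With L1d against P45 Gbp2 rose by 0.65 (SE 0.0648, adjusted p = 3.23e-05), and it was called whichever replicate was left out. In DN1 Gbp2 stood at 66.8 and 62.8 CPM with P45 and at 60.1 and 66.3 CPM with L1d. The difference between the stage changes of L1d and P45 was 0.68 for Gbp2 (SE 0.0919, adjusted p = 0.00176).

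With L1d against P45 9 of the 37 genes were called, all higher, where 8.05% of all genes were called higher and 2.8% lower (10.9% in all). They were all 4 IFIT genes, Stat2, Herc6, Gbp2, Rsad2 and Ifi44. Stat2 was at 47.2 and 75.4 CPM with L1d and at 30.9 and 34.1 CPM with P45 (log2 change 0.92, SE 0.188, adjusted p = 0.00592), and Ifit2 was at 130 and 234 CPM against 101 and 94.5 CPM (0.90, SE 0.195, adjusted p = 0.00818). Ifit3 was at 64.5 and 106 CPM against 52.8 and 52.1 CPM, and Ifit1 at 131 and 149 CPM against 106 and 111 CPM. Ifit3b was at 31 and 40.8 CPM against 21.7 and 22.2 CPM, and Rsad2 at 131 and 172 CPM against 117 and 115 CPM. No L1d replicate overlapped P45 for the 9 genes. L1d replicate 2 was the higher for Stat2, Rsad2, Herc6, Ifi44 and the 4 IFIT genes but not for Gbp2. None of the OAS genes, the nucleic acid sensors or the Mx genes was called.

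L1d replicate 2 also stood apart in stromal transcripts. The sum of 8 OP9 stroma genes was 27 CPM in L1d replicate 1 and 213 CPM in replicate 2, against 38.4 and 101 CPM with P45 and 20 and 45.6 CPM with L7d. The libraries of L1d replicate 2 were close to each other, at 75.2 and 75.1 CPM for Stat2. Without L1d replicate 2, only Gbp2 remained called. Without P45 replicate 1 the count was 1 and without P45 replicate 2 it was 2, while without L1d replicate 1 it was 10, and with these 2 groups alone in the fit it was 2. The granulocyte sum was 4890 and 4270 CPM with L1d and 1750 and 1810 CPM with P45, while the T lineage sum was 591 and 520 CPM with L1d and 1660 and 1530 CPM with P45. The part of these cells in the higher levels was not tested.

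With L7d against P45 in DN2 edgeR called 0 of the 37 genes (0.293% of all genes) and DESeq2 called 1. At an unadjusted p under 0.05 there were 4 (7.53% of all genes). The changes ran from -0.12 (Irf1) to 0.33 (Mx1), and Gbp2 came nearest to the threshold (adjusted p = 0.0513). For the difference between stage changes, 2 of the 37 were called for L1d against P45 (1.58% of all genes), Gbp2 and Ifi44 (0.58, SE 0.136, adjusted p = 0.0459). The Ifi44 call was lost in most fits that left out a replicate, among them those without L1d replicate 2 in DN2 or replicate 1 in DN1, and the count ranged from 1 to 5. For L7d against P45 edgeR called 0 of the 37 (0 of 15010 genes) and DESeq2 called 0. At an unadjusted p under 0.05 there was 1 (4.74% of all genes).

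**Figure D5:**
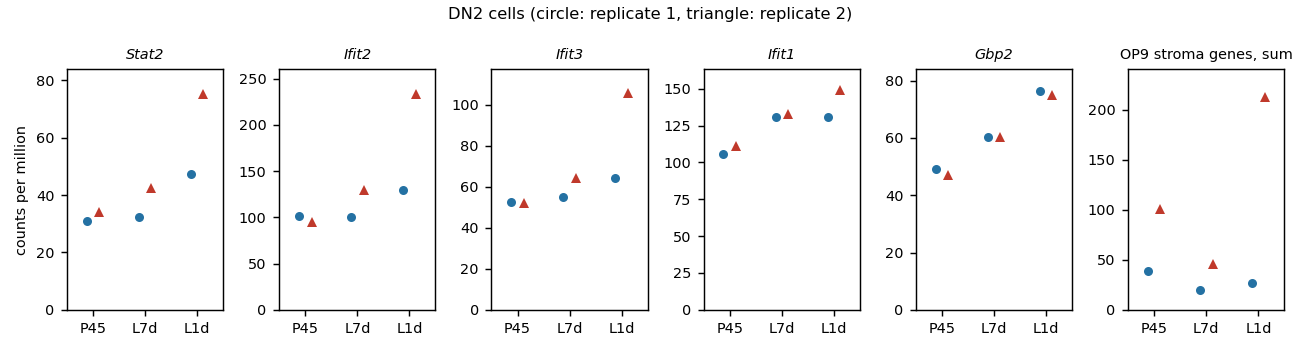
Points are DN2 replicates in CPM on axes from 0 (circle for replicate 1, triangle for replicate 2) for 5 genes and for the sum of 8 OP9 stroma genes. L1d replicate 2 is highest for Stat2, Ifit2, Ifit3 and Ifit1 and for the stroma sum (213 CPM), while both L1d replicates of Gbp2 lie above P45.

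The rest of the interferon pathway was read from lists of ligands, receptors and kinases, transducers, sensors, inhibitors and gamma-type targets. Counts of the transducer list are given only for WT against EV in the line. None of 11 interferon genes had enough reads to be tested. Ifnb1 was at most 0.0708 CPM in any group, Ifna4, Ifne, Ifnl2 and Ifnl3 had no read, and Ifng, the type II interferon, was highest in DN2 L7d at 0 and 1.01 CPM. Of 9 receptor and kinase genes 7 were lower in DN2 than in DN1 with P45, 6 with L1d and 8 with L7d, and 0 were higher, where 22.6%, 19.7% and 21.8% of all genes were called lower. The gamma-type targets went both ways, with 5 higher and 8 lower of 22 tested with P45, 9 and 2 with L1d, and 5 and 5 with L7d. Over all genes 20.6%, 20.1% and 19.5% were called higher with P45, L1d and L7d. Of 8 inhibitors 4, 4 and 5 were lower and 1, 0 and 1 higher. Ifngr1, a chain of the interferon gamma receptor, was at 200 to 210 CPM in DN1 P45 and 107 to 120 CPM in DN2 P45 (fell by 0.86, adjusted p = 1.23e-07). Among 12 sensors and adaptors 8, 4 and 7 were lower and 1, 2 and 2 higher with P45, L1d and L7d. Myd88, the adaptor of most Toll-like receptors, was lower with all 3 (by 0.93, 0.75 and 0.90). Tmem173, which encodes STING, the adaptor for cytosolic DNA, went the other way, from 94.1 to 105 CPM in DN1 P45 to 129 to 131 CPM in DN2 P45 (0.38, adjusted p = 0.00108).

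Ifnlr1, the receptor chain for type III interferon, had the largest fold change between constructs among the called genes of these lists. In DN1 it was at 6.76 and 8.52 CPM with EV, 6.09 and 6.29 with HMGd, 3.22 and 3.46 with L1d, 1.77 and 2.33 with L7d, and 0.723 and 0.817 CPM with P45, with no overlap between neighbouring groups in this order. With P45 against EV it fell by 3.32 (SE 0.333, adjusted p = 1.62e-05), and no tried setting or left-out replicate ended the call. This is also the order of the granulocyte sums given above, whose part was not tested. In the same comparison 2 of 9 receptor and kinase genes were lower (Ifnlr1 and Jak1), where 5.72% of all genes were called lower. Of 12 sensors and adaptors 2 were higher (Tmem173 and Mavs), and of 22 tested gamma-type targets 2 were higher (Gbp5 and Tgtp2). Over all genes 1.75% were called higher. Calls of Jak1, Mavs, Gbp5 and Tgtp2 were lost without EV replicate 1, while that of Tmem173 held. Tmem173 was at 68.4 and 71.2 CPM with EV and at 94.1 and 105 CPM with P45 (0.51, adjusted p = 0.000801).

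In DN2 with L1d against P45, 2 of 22 tested gamma-type targets were called, both higher, a share close to the 8.05% of all genes called higher. Gbp5, a relative of Gbp2, was at 59.1 and 61.9 CPM with L1d and 35.3 and 40.3 CPM with P45 (0.68, adjusted p = 0.000224), and Cd274, which encodes PD-L1, was at 37.5 and 49.5 CPM against 17.2 and 20.8 CPM (1.19, adjusted p = 0.000238). Both calls held whichever replicate was left out. Gbp5 also differed between the stage changes of L1d and P45 (0.95, adjusted p = 0.00144). Irf4, a factor of lymphoid and myeloid cells, was at 4.12 and 6 CPM with L1d and 0.956 and 1.39 CPM with P45 (2.10, adjusted p = 0.00035). It is shown alone, without the count called in its list or its call when replicates were left out. Over all genes 8.05% were called higher. In the cell line with WT against EV, Ifnar1, Jak1 and Jak2 were lower, 3 of 8 tested receptor and kinase genes, where 12.6% of all genes were called lower. Of 7 other transducer and Irf genes 5 were tested, with 2 lower and 0 higher. Of 11 tested gamma-type targets 3 were higher and 1 lower, and of 7 tested inhibitors 1 was higher, where 12.3% of all genes were called higher. Jak1 was at 227 CPM with EV and 192 CPM with WT (fell by 0.24, adjusted p = 0.0012), and the Ifnar1 and Jak2 calls were lost without WT replicate 1, that of Jak2 also without EV replicate 1.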

How the data were processed

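The authors deposited 1 table of read counts per gene and library, with unstranded, forward-strand and reverse-strand counts per the file layout, and the reverse-strand counts were used. The submitters' processing notes name STAR 2.5.0a, HTSeq 0.6.1 and GRCm38, with no roles given. Of 59 libraries 58 were used. One DN1 L1d library whose table stops after 14312 genes was left out. The 44 primary libraries were summed to 16 replicates by the replicate number marked B in the titles, since the libraries marked T within it are read as repeats. The labels do not state what B and T stand for. Of all reads counted or flagged, 56.06 to 73.91% lay outside the genes (unmapped, multi-mapped, ambiguous or in no feature) and stayed out of library sizes.

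In R 4.3.3, edgeR 4.0.16 fitted the 14 line libraries (10939 genes after filterByExpr) and the 16 primary replicates (15010 genes) separately, with TMM scaling, group as the only term and quasi-likelihood tests. P-values were adjusted by Benjamini-Hochberg over all genes of a fit, with a threshold of 0.05 and a prior count of 0.125. Levels are CPM with TMM. The scripts were tested on simulated data. DESeq2 1.42.0 and the other alternatives are given in the closing section. Zero-count limits use 3 counts and cover counting error only.

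The 37 genes and all lists were chosen with earlier results of these data known. Values in every sample are given for the called genes with the largest changes, up to 6 in each direction per comparison, and for the most abundant genes of a role.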

Additional observations from a re-analysis of the deposited data

Results flagged for a closer look

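The change from DN1 to DN2 differed between L1d and P45, by edgeR's test of the difference itself, for Gbp2 (0.678 on the log2 scale, adjusted p = 0.00176) and for Ifi44 (0.583, adjusted p = 0.0459).

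For 3 of the 17 genes tested in the line, every replicate with wild-type TCF-1 moved one way against EV there and the other way in DN1. The difference was not tested, and the share of all genes with this pattern was not counted. Mx1 had a log2 change of -1.36 in the line and 0.18 in DN1, where it was not called. Ifit2 had 0.236 in the line and -0.336 in DN1, and Trim30a had 0.901 in the line and -0.0668 in DN1. Neither gene was called in either place, and Trim30a had only 12 and 11 reads with EV in the line.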

How the results depend on the processing

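The 118 calls of the 37 genes were refitted under the alternative settings, which gave 1413 results in all, several per call. Of these results 1225 kept the call, 188 lost it and 0 changed direction. They include 90 results with each T library counted as a replicate, all of which kept the call. Leaving out a replicate gave 135 of the 188 lost calls. With 2 replicates a group, a left-out replicate leaves 1 sample, which is assumed to vary like the other groups. All 37 genes were kept at a minimum of 0.5 or 2 CPM and without TMM factors.

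Counts of the 37 genes called moved by over 1.5 times as follows, against EV unless WT or P45 is named. With no filter on low counts they were 1 for DL6, 1 for L7d, 1 for HMGd and, against P45 in DN1, 2 for L1d, 1 for L7d and 6 for HMGd, with 5 for the L1d stage difference and 10 for any difference in DN1. Ignoring strand gave 1 for DL7, 5 for DL6 against WT, 0 for HMGd against P45 and 1 for the L1d stage difference. DESeq2 gave 1 for DL1, 0 for DL1 and 2 for DHMG against WT, 4 for any difference in the line, 1 for L7d in DN1, 2 for L1d, 1 for L7d and 4 for HMGd against P45 in DN1, 1 for L7d against P45 in DN2 and 7 for any difference in DN1. With only the compared groups in the fit, counts were 2 for DL6, 1 for DL7, 0 for DL1 against WT, 11 for P45, 3 for L7d, then against P45 in DN1 4 for L1d, 1 for L7d and 0 for HMGd, 2 for L1d against P45 in DN2 and 1 for the L1d stage difference. RLE size factors gave 1 for L7d in DN1. Counting each T library as a replicate gave 12 for P45, 1 for L1d, 8 for L7d and 11 for HMGd, against P45 in DN1 7 for L1d, 4 for L7d and 13 for HMGd, in DN2 20 for L1d and 7 for L7d, 10 for the L1d stage difference and 19 for any difference in DN1. The causes were not tested.

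Leaving out single replicates gave 2 to 3 for DHMG against EV, and against WT 0 to 2 (DL1), 1 to 3 (DL6), 2 to 6 (DL7) and 1 to 4 calls (DHMG). In DN1 it gave 2 to 3 for P45 and 0 to 3 for HMGd against EV, 0 in every fit for L1d and 0 to 8 for HMGd against P45, and 0 to 8 for any difference. It gave 1 to 10 for L1d against P45 in DN2 and 1 to 5 for the L1d stage difference.

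Replicate numbers were not taken as pairs. Same-numbered deviations correlated from -0.0376 to 0.0354 over 21 pairs of line groups and from -0.0333 to 0.255 over 28 pairs of primary groups, 11 of them over 0.1. With a replicate block all 118 calls were kept, and counts became 1 for DL6 against EV, 1 for L7d against EV in DN1, 4 for HMGd against P45 and 1 for L7d against P45 in DN2.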
